A study of Mus musculus with 24 samples.

Results

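The 4 libraries of mouse induced pluripotent stem (iPS) cells were compared with the 4 libraries of untreated bulk mouse embryonic fibroblasts (MEF), the end state and the start state of reprogramming, across all genes. These 8 libraries were picked by their sample labels alone out of the 24 libraries of a series on cycling speed during reprogramming with the Yamanaka factors. The bulk MEF were kept in DMEM with 10% fetal bovine serum (FBS) and were never exposed to the factors or to doxycycline. Their labels call them bulk, unsorted and slow cycling. The iPS cells were factor-independent, meaning that they were grown without doxycycline to drive the factors. They were kept in embryonic stem cell medium with 15% FBS and 1000 U/ml of leukaemia inhibitory factor (LIF), were gated as positive for an Oct4:GFP reporter, and are labelled fast cycling. For each library, RNA was taken from the cytosol of 1000 cells, copied into cDNA with an oligo-dT primer, and the cDNA was amplified. Strain, embryo, passage and iPS clone are not stated in the labels, so the 4 libraries of a group may be separate cultures or wells of a single culture, and p-values measure only the spread between libraries. Medium, serum, LIF, the GFP gate and labelled cycling speed all changed together with cell identity and cannot be told apart from it. In RNA from many cells, fewer cells of a type and less RNA per cell cannot be told apart either.

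As background, fibroblasts build and pull on connective tissue: they secrete collagens and their modifying enzymes, carry actin stress fibres anchored at focal adhesions, and keep positional codes of homeobox genes. Mouse pluripotent cells grow as compact epithelial colonies, divide with a short G1 phase, and hold their identity through a transcription factor network around Pou5f1 (Oct4), Sox2 and Nanog. In culture that network is sustained by LIF acting through Stat3, while fibroblast growth factor signalling through Erk pushes the cells towards differentiation.

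Total counts per library ran from 5051170 to 18648132 in iPS and from 8997774 to 12028033 in bulk MEF. The iPS libraries had a count for 14244 to 15327 genes and the bulk MEF libraries for 12755 to 13758 (two-sided exact permutation p = 0.0286, the smallest that 4 against 4 allows). Pearson correlations of depth-scaled log counts of the genes tested were 0.869 to 0.908 within iPS, 0.888 to 0.901 within bulk MEF and 0.462 to 0.519 between the groups. Levels are given as CPM, the usual depth-scaled counts, and differences as log2 fold changes of iPS over bulk MEF with their standard error (SE). A gene is called when its edgeR adjusted p is under 0.05. Of 11736 genes tested, 47.4% were called in either direction, 24.1% higher and 23.3% lower in iPS, and the median log2 difference over all of them was 0.10. These shares are the background for every count below.

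Cell type markers separated the libraries as their labels do. All 10 pluripotency markers examined were higher in iPS and all 10 fibroblast markers were lower, with no overlap between the groups. Over all genes tested, 47.2% did not overlap and 43.3% were also called. The pluripotency markers summed to 3385, 4137, 4790 and 4547 CPM in iPS libraries 1 to 4 and to 27.1, 2.12, 24.1 and 0.834 CPM in bulk MEF libraries 1 to 4. Bulk MEF library 3 held the highest bulk MEF value of 9 of the 10, and 7 of the 10 had no count in bulk MEF library 4. The fibroblast markers summed to 27880 to 53049 CPM in bulk MEF and to 1173, 1052, 699 and 734 CPM in iPS libraries 1 to 4, which is 1.81% to 3.04% of the bulk MEF mean. Where a large fold change is quoted for a gene of one state, its size therefore rests on these low values in the other state.

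Called differences were large as well as numerous. By the edgeR estimates, differences were at least 4-fold for 1752 called genes higher in iPS and 1890 lower. They were at least 64-fold for 509 higher and 288 lower. For genes with no count in 1 group the estimate can exceed what the counts bound. Ddx4, for example, had an estimated log2 difference of 8.82 but was bounded only at 63-fold or more. A further way to read the separation is that 483 genes had a count in every iPS library and none in any bulk MEF library, while 83 had the reverse. Of those, 7 and 1 respectively reached a mean of 20 CPM. The plot of gene lists gives the spread behind each list described below. When all 24 libraries of the series shared 1 fit, 3170 genes were called. Of the called genes named below, 38 were not called in that fit: Bmp4, Cdh3, Chd1, Dusp5, Dusp6, Eno2, Fgfr1, Gata6, H19, Ifitm3, Igf2bp1, Igf2bp2, Il6st, Itga3, Itga6, Klf4, Lama1, Lamc1, Ldhb, Lifr, Mitf, Mkl1, Nes, Pim3, Pkp2, Rbm47, Setdb1, Smarcc1, Smoc1, Snai1, Spry1, Stat3, Tbx3, Tcf7l1, Tead2, Tfe3, Tfeb and Zeb1.

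**Figure D1:**
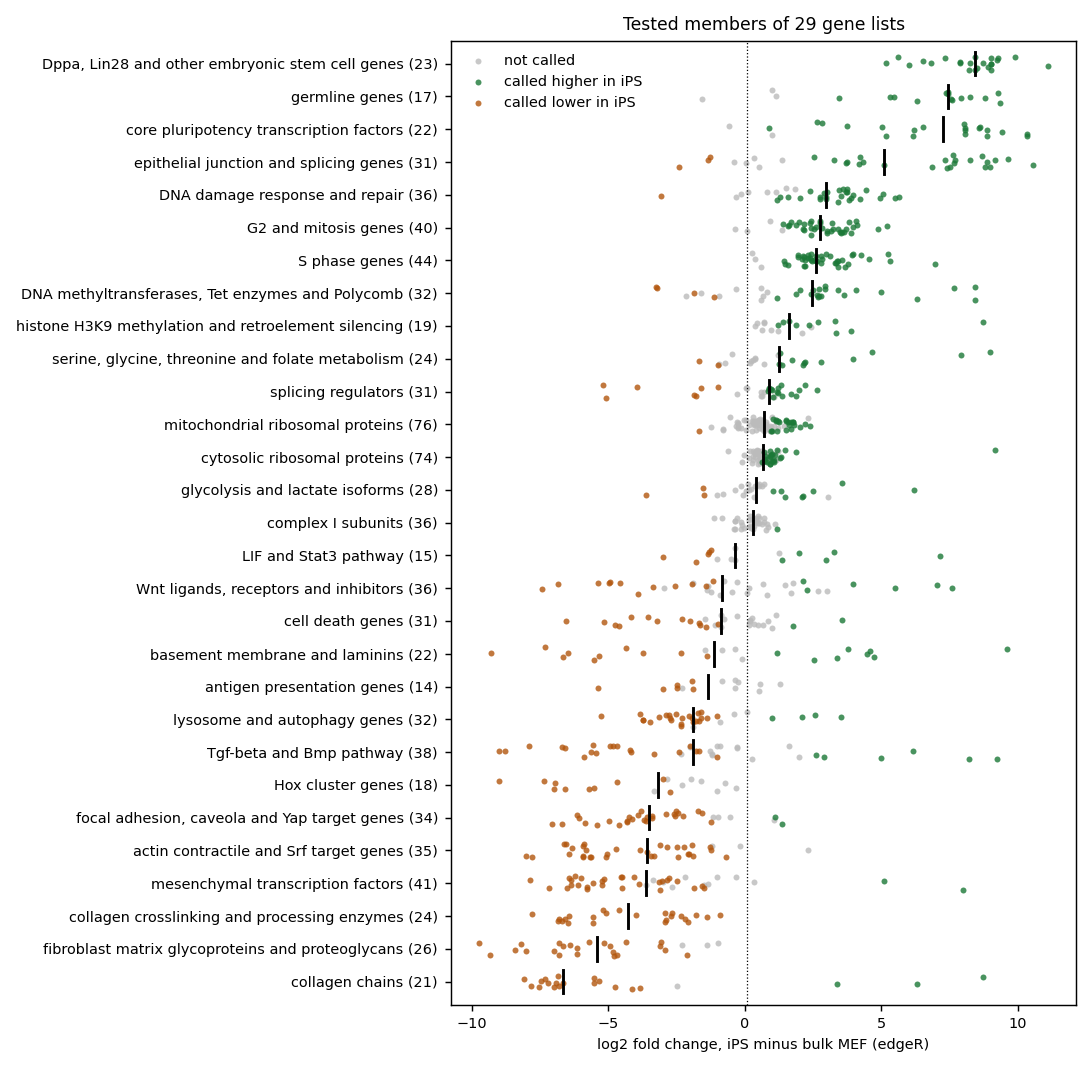
Log2 fold change (iPS minus bulk MEF, edgeR) of every tested member of 29 gene lists, with the number tested in parentheses; each point is a gene, coloured by its call, the black bar is the list median and the dotted line the median of all 11736 genes tested. Medians run from -6.66 for collagen chains to 8.45 for embryonic stem cell genes, and the list of complex I subunits lies near the dotted line with 1 called member of 36.

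Most of the pluripotency network rose, including genes that mark its naive form. Of 22 core pluripotency transcription factors tested, 20 were higher in iPS and 0 lower (median log2 difference 7.28, or 7.04 with the gene that had no bulk MEF count placed at its lower bound). Prdm14, a repressor of differentiation genes in the naive state and in germ cells, was at 43.8, 46.9, 77 and 41.7 CPM in the iPS libraries and at 0, 0, 0.115 and 0 CPM in bulk MEF (log2 difference 10.36 ± 0.76 SE, adjusted p = 1.02e-05). Klf2, a naive-state factor, was at 201, 229, 225 and 188 CPM in iPS and at 9.23, 12.6, 30.8 and 10.8 CPM in bulk MEF (3.73 ± 0.43, adjusted p = 0.000105), and the related Klf5 rose by 2.82 ± 0.31. Tbx3, which maintains naive cells but is also a limb and fibroblast factor, was already at 26.8 to 93.1 CPM in bulk MEF and reached 258 to 574 CPM in iPS. Klf4, a reprogramming factor that fibroblasts also express, was at 135, 134, 172 and 132 CPM in bulk MEF and 274, 262, 287 and 231 CPM in iPS (0.88 ± 0.22, adjusted p = 0.0077), a far smaller difference than the list median. The fibroblast levels of the 20 called members thus ran from no count to 172 CPM, and in none of the 20 did the groups overlap. The members that were not called were Myc and Zfp281. Members nearly absent from bulk MEF, such as Prdm14, passed the count filter through the iPS libraries.

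A wider list of embryonic stem cell genes had 24 members, and all 23 that could be tested were higher in iPS (median 8.45). Those nearly absent from bulk MEF, such as Dppa4 and Lin28a, passed the count filter through the iPS libraries, so their direction was close to set beforehand. Tcl1, a coactivator of the Akt kinase, was at 48.2 to 76.8 CPM in iPS and at 0, 0, 0.23 and 0 CPM in bulk MEF. Dppa5a, an RNA-binding protein of pluripotent cells, was at 720, 1045, 1087 and 1268 CPM in iPS against 3.15, 0.202, 5.18 and 0 CPM in bulk MEF (8.91 ± 1.10, adjusted p = 0.000154). Dppa3 (Stella), which protects the early embryo's DNA methylation, was low even in iPS, at 4.35, 8.73, 4.87 and 12.1 CPM, with no count in bulk MEF, so it was at least 89.4-fold higher.

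Genes of the later, primed epiblast gave a mixed picture, with 5 of 10 tested higher in iPS and 1 lower. Otx2, a homeobox factor of the formative and primed epiblast, was at 44, 21.6, 22.1 and 32.7 CPM in iPS and at 0.217 CPM or less in bulk MEF (7.93 ± 0.73, adjusted p = 2.95e-05). Pou3f1 (Oct6), its partner in that transition, was at 26.1 to 64.5 CPM in iPS and had counts in 1 bulk MEF library, at 0.461 CPM. By contrast Fgf5, the classical primed epiblast marker, stayed at 0.576 to 2.14 CPM in iPS and was too low to test. The primitive streak genes T (Brachyury) and Eomes were not called, T at 0.106 to 10.7 CPM in iPS and Eomes at 2.51 to 7.41 CPM. Gata6, a primitive endoderm factor, fell (-5.09 ± 1.18, adjusted p = 0.00543), from 9.45 to 27.8 CPM in bulk MEF to 0, 1.25, 0 and 0.356 CPM in iPS.

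The letters of one well-known promoter are shown because both factors that bind it rose with it. Promoter windows, from 250 bases before to 50 after an annotated start, were taken from RefSeq (build GRCm38.p6) and matched 9316 of the 11736 genes tested. Each was searched on both strands for the octamer core ATGCAAA, the kind of site Pou5f1 binds, and for the Sox motif ACAATG. The octamer core lay in the windows of 3 of the 15 called core pluripotency factors that had one (20%) and of 0 of 12 called genes of the wider embryonic stem cell list, against 4.04% of genes tested. The Sox motif lay in 3 of the 15 (20%) and 1 of the 12 (8.33%), against 8.58%. The octamer core followed by the Sox motif after 1 base occurred in 2 of 32851 windows, both of them overlapping windows of Nanog. The stretch up to the start at chr6:122707399-122707488 (plus strand) is printed here, with the pair in capitals, beginning 75 bases before the start:
Nanog: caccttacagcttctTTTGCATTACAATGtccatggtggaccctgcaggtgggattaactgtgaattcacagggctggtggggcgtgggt
Nanog, which carries it, was at 38.6, 42.9, 40.1 and 38.8 CPM in iPS and at 0, 0.202, 0.346 and 0 CPM in bulk MEF (8.07 ± 0.80, adjusted p = 4.48e-05). The cells were gated on an Oct4 reporter, so the level of Pou5f1 in them is partly a property of the gate. A letter match describes the sequence and was not tested as a binding site.

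Among signalling genes, several ligands were exchanged between the states. In the Tgf-beta and Bmp pathway 6 of 38 tested genes were higher in iPS and 20 lower (median -1.90). Nodal, the ligand that patterns the early embryo, was at 71.4, 85.8, 71.1 and 70.6 CPM in iPS and at 0.109, 0, 0.346 and 0 CPM in bulk MEF (9.24 ± 0.75, adjusted p = 1.68e-05). Gdf3, a related ligand, was at 145 to 207 CPM against 0.119 to 1.38 CPM. Lefty1 and Lefty2 are secreted antagonists and transcriptional targets of Nodal signalling. Lefty1 was at 110, 145, 177 and 153 CPM in iPS and 2.28, 0.101, 2.88 and 15.7 CPM in bulk MEF (adjusted p = 0.00303), and Lefty2 rose by 8.44 ± 0.98. Bmp4, which supports self-renewal together with LIF, was at 89.5, 114, 174 and 113 CPM in iPS and 18.4, 11, 31.1 and 5.25 CPM in bulk MEF (2.90 ± 0.53, adjusted p = 0.00142).

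The fibroblast ligands of the same family fell. Tgfb3, a ligand that drives matrix production, was at 987, 666, 851 and 844 CPM in bulk MEF and at 4.68, 2.69, 0.476 and 0.356 CPM in iPS (-8.78 ± 0.83, adjusted p = 3.58e-05). Inhba, which encodes the activin A subunit, was at 948 to 1010 CPM in every bulk MEF library and at 26.3, 32.6, 0.212 and 6.86 CPM in iPS. So the 2 activin-type inputs that share receptors moved in opposite directions, Nodal up and Inhba down. Grem1, a secreted Bmp antagonist, fell from 257 to 451 CPM to 0.265 to 3.36 CPM (-7.89 ± 0.75), and Ltbp2, a latent Tgf-beta binding protein of elastic fibres, from 144 to 328 CPM to 0.159 to 0.837 CPM (adjusted p = 1.02e-05). The receptor Tgfbr2 fell as well (-4.20 ± 0.76, adjusted p = 0.00136). Smad7, the pathway's feedback inhibitor, was not called, at 204 to 295 CPM in bulk MEF and 142 to 297 CPM in iPS.

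The LIF pathway moved in both directions, with 5 of 15 tested genes higher in iPS, 5 lower and a median of -0.35. The receptor chain Lifr was at 8.7, 8.44, 8.05 and 7.13 CPM in iPS and 3.8, 2.52, 2.65 and 3.46 CPM in bulk MEF (1.37 ± 0.47, adjusted p = 0.0352), a call that held in 1 of the 8 fits that each left out 1 library. Its partner Il6st (gp130) fell by 1.30 ± 0.29 and the kinase Jak1 by 1.77 ± 0.38. Stat3 itself, the transcription factor they activate, was at 360, 366, 409 and 420 CPM in bulk MEF and 185, 173, 113 and 198 CPM in iPS (-1.22 ± 0.24, adjusted p = 0.00208). The pathway's target genes went the other way: Socs2, a feedback inhibitor, rose by 3.27 ± 0.45 and the kinase Pim3 by 2.97 ± 0.56. Socs3, the main feedback inhibitor, was at 144 to 268 CPM in iPS and at 19.4, 138, 29.3 and 14.3 CPM in bulk MEF (1.98 ± 0.68, adjusted p = 0.0343, called in 2 of the 8 fits that each left out 1 library). All 5 genes that fell (Il6st, Jak1, Jak2, Stat3 and the phosphatase gene Ptpn11) act in relaying the signal, while the 5 that rose were Lifr, the feedback and target genes Socs2, Socs3 and Pim3, and the transcription factor Gbx2. The count of genes higher in iPS was 3 in place of 5 without bulk MEF library 3, bulk MEF library 4, iPS library 2 or iPS library 3.

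Fibroblast growth factor signalling showed the same exchange of ligands, with 6 of 20 tested genes higher and 6 lower. Fgf4, the autocrine ligand of pluripotent cells, was at 128, 132, 98 and 92.7 CPM in iPS and 0.76, 0.101, 0.576 and 0 CPM in bulk MEF (8.24 ± 0.76, adjusted p = 2.96e-05). Fgf7, a mesenchymal ligand that acts on epithelia, fell from 10.8 to 15.7 CPM to 0.671 CPM or less (-6.14 ± 1.07). The receptor Fgfr1 fell by 2.26 ± 0.30. Feedback genes of Erk split: the transcription factor Etv5 rose from 39.5 to 102 CPM to 499 to 551 CPM (3.07 ± 0.32), while the phosphatases Dusp5 and Dusp6 fell by 3.43 ± 0.69 and 1.54 ± 0.44 and Spry1, an inhibitor of receptor kinases, by 2.47 ± 0.41.

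In the Wnt pathway 6 of 36 tested genes were higher and 12 lower, a total share of 50% that lies near the background. Dkk3, a secreted Dickkopf family protein, was at 345, 175, 96.9 and 197 CPM in bulk MEF and 1.84, 2.49, 0.847 and 1.96 CPM in iPS (-6.84 ± 0.56), and the ligand Wnt5a fell by 5.38 ± 1.10. Tcf7l1 (Tcf3), the repressor arm of the pathway in pluripotent cells, was at 226 to 454 CPM against 46.7 to 103 CPM (2.13 ± 0.33), and the activator Tcf7 rose by 5.51 ± 0.81. Ctnnb1 (beta-catenin), which both bind, was at 197 to 235 CPM in iPS and 179 to 222 CPM in bulk MEF (0.07 ± 0.21, adjusted p = 0.812). Of the insulin-like growth factor system, 1 of 16 tested genes was higher and 11 lower. The one that rose, Igfbp2, a binding protein, was at 1691, 1244, 1664 and 2264 CPM in iPS and 50.6, 203, 169 and 23.5 CPM in bulk MEF (3.94 ± 0.63). Irs1, the adaptor of the receptor, fell by 6.58 ± 0.85, and the binding protein Igfbp6 and the protease Pappa by 7.30 ± 0.83 and 7.27 ± 0.81.

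**Figure D2:**
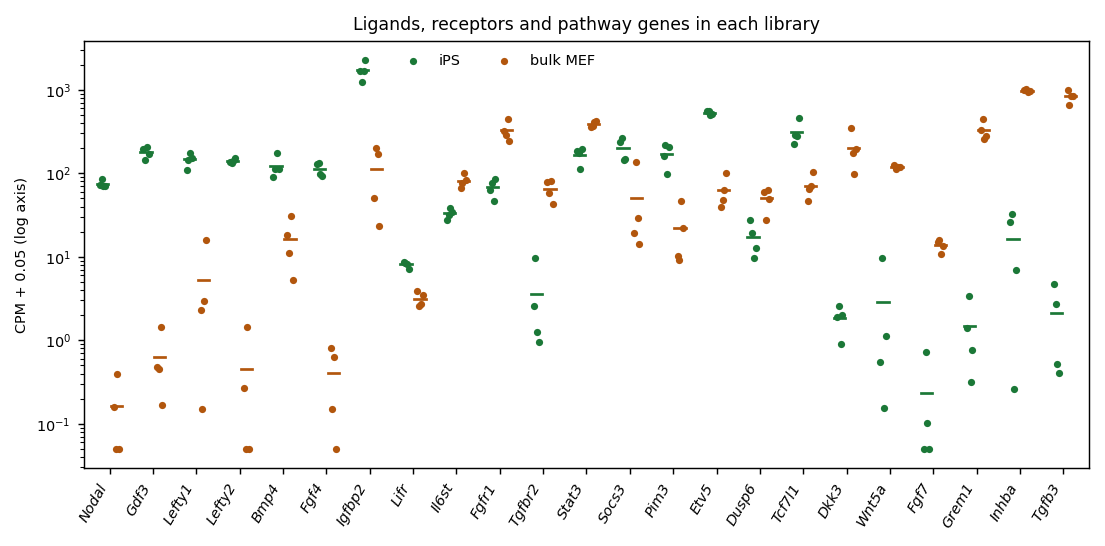
CPM (plus 0.05, log axis) of 23 ligands, receptors and pathway genes in each of the 4 iPS and 4 bulk MEF libraries; each point is a library and the short bar the group mean. Nodal, Gdf3, Lefty2 and Fgf4 lie above 70 CPM in every iPS library and below 1.5 CPM in every bulk MEF library, and Tgfb3, Inhba and Grem1 show the reverse separation.

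Chromatin regulators rose more often than they fell, and several paired subunits exchanged places. Among DNA methyltransferases, Tet enzymes and Polycomb proteins, 20 of 32 tested genes were higher and 4 lower (median 2.47). Dnmt3l, the catalytically inactive cofactor of de novo methylation, was at 302, 201, 366 and 243 CPM in iPS against 0.326, 0.404, 2.42 and 0 CPM (8.45 ± 0.91). Tet1, which oxidises methylcytosine, was at 474, 375, 461 and 526 CPM in iPS and at 4.78, 1.11, 3.11 and 0 CPM in bulk MEF (7.66 ± 0.90, adjusted p = 0.000119). Tet3, its relative, fell, from 28.3, 11.9, 45.4 and 28.5 CPM to 3.68, 16.4, 5.03 and 6.23 CPM (-1.86 ± 0.59, adjusted p = 0.0256), with overlapping libraries and a call in 4 of the 8 fits that each left out 1 library. The count of the list's lower genes was 2 without iPS library 1.

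Polycomb repressive complexes place silencing marks on histones. Jarid2, a subunit that recruits the second complex, rose from 2.71, 4.14, 35.9 and 5.48 CPM to 354 to 423 CPM (5.00 ± 0.82). Its catalytic subunit Ezh2 rose by 2.65 ± 0.38, while the alternative subunit Ezh1 was at 10.1 to 68.8 CPM in iPS and 11 to 88.6 CPM in bulk MEF and was not called. Of the chromobox readers of the first complex, Cbx7, the form typical of embryonic stem cells, was at 137, 180, 132 and 147 CPM in iPS and 1.09, 1.41, 3.46 and 1.55 CPM in bulk MEF (6.30 ± 0.46, adjusted p = 1.02e-05).

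Subunits of the BAF remodelling complex were called in 36.4% of the 22 tested, below the background, and those called included subunits known to differ between embryonic stem cells and other cells. Smarcc1 (BAF155) was higher in iPS (0.73 ± 0.23, adjusted p = 0.0264, called in 4 of the 8 fits that each left out 1 library). Smarcc2 (BAF170), its alternative, fell from 55.4, 93.4, 112 and 132 CPM to 8.53, 21.3, 14.7 and 6.5 CPM (-2.94 ± 0.47, adjusted p = 0.000663). The ATPase Smarca2 (Brm) fell by 2.30 ± 0.49, while Smarca4 (Brg1), the ATPase used in embryonic stem cells, was at 714 to 1049 CPM in iPS and 382 to 896 CPM in bulk MEF and was not called. Actl6a, the actin-like subunit of dividing cells, rose by 2.65 ± 0.42. The remodeller Chd1, which keeps pluripotent chromatin open, was at 66.9 to 76.5 CPM against 13.5 to 27.9 CPM (1.85 ± 0.33), whereas Chd3 of the NuRD complex fell by 3.37 ± 0.41 and the class II deacetylase Hdac7 by 5.67 ± 0.76. In that list of NuRD, Chd and Ino80 factors 13 of 25 tested genes were higher and 5 lower, with 8 higher without bulk MEF library 1 or iPS library 4.

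Genes for the silencing of retroelements by histone H3 lysine 9 methylation showed gains with no losses, 10 of 19 tested higher and 0 lower. The total share called, 52.6%, was close to the background. In the fit over all 24 libraries, 5 of them were called higher. Trim28 (Kap1), the corepressor that zinc finger proteins recruit, was at 1843, 2078, 2164 and 1982 CPM in iPS and 172, 254, 199 and 173 CPM in bulk MEF (3.34 ± 0.21, adjusted p = 5.07e-06). Zfp57, a zinc finger protein that guards imprints through Trim28, was at 115 to 155 CPM in iPS and 8.38 to 9.66 CPM in bulk MEF (3.89 ± 0.29), and the methyltransferase Setdb1 rose by 1.89 ± 0.50. Of 279 tested genes with a Zfp name, which include many of Trim28's zinc finger partners, 30.1% were called, 57 higher and 27 lower, a smaller share than the background.

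Genes of the nuclear envelope and of proteins that bend DNA moved in both directions. In the list of histone variants, Hmg proteins and nuclear lamina, 15 of 29 tested genes were higher in iPS and 5 lower. Lmna fell and Lmnb1 rose, but Lmna stayed the higher of the 2 in every iPS library. Lmna, encoding the A-type lamins of stiff differentiated nuclei, was at 4356, 4457, 3907 and 4950 CPM in bulk MEF and 215, 199, 191 and 111 CPM in iPS (-4.63 ± 0.26, adjusted p = 2.7e-06). Lmnb1, the B-type lamin, was at 92, 88.8, 78.9 and 97.4 CPM in iPS and 8.58, 3.03, 5.99 and 2.27 CPM in bulk MEF (4.16 ± 0.48), and Lbr, the receptor that holds heterochromatin at the envelope, rose by 2.22 ± 0.35. Hmga2, an architectural protein of growing mesenchyme and a let-7 target, fell from 238 to 329 CPM to 10.7 to 16.6 CPM (-4.35 ± 0.28), while Hmgb2 rose by 3.77 ± 0.31. At telomeres, 8 of 17 tested genes were higher and 0 lower, close to the background share in total. Terf1, which coats telomeric repeats, was at 27.4, 46.8, 59 and 46.3 CPM in iPS and 1.95, 2.22, 2.65 and 0.834 CPM in bulk MEF (4.54 ± 0.50). Tert, the telomerase catalytic subunit, was at 0.669, 5.18, 1.32 and 6.86 CPM in iPS and at 0 to 1.72 CPM in bulk MEF and was not called (adjusted p = 0.137).

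**Figure D3:**
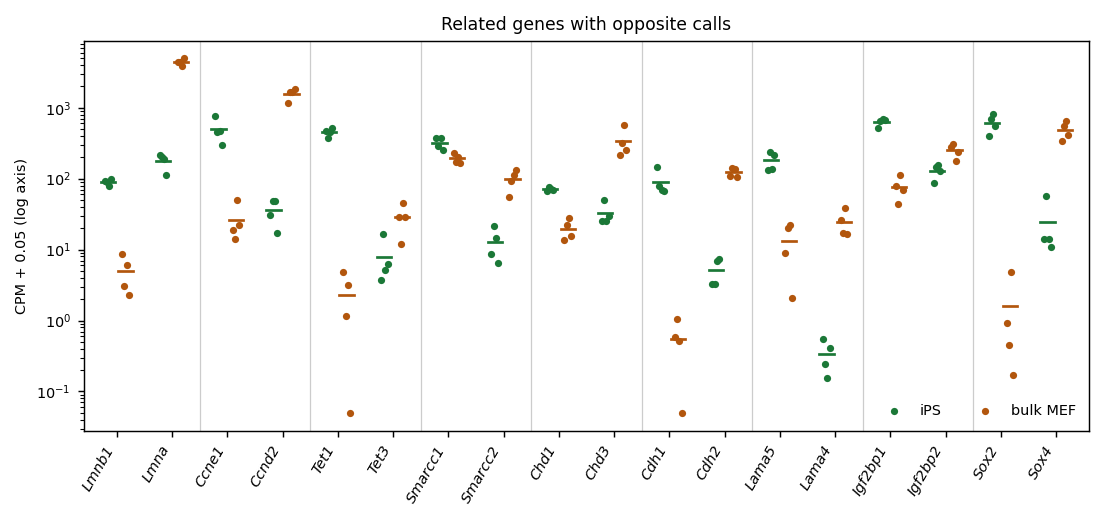
CPM (plus 0.05, log axis) of 9 pairs of related genes in each library, the member higher in iPS first in each pair; points are libraries and short bars group means. The 9 pairs were picked as related genes with opposite calls, so the opposite calls follow from that choice. Tet3 is the one gene shown whose groups overlap.

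Genes of DNA replication and mitosis rose almost without exception, 41 of 44 tested S phase genes and 36 of 40 mitosis genes, with 0 lower in either list. The labels call the iPS cells fast and the fibroblasts slow cycling, and these counts moved with that label. Mcm10, a factor that starts replication forks, was at 188, 143, 183 and 165 CPM in iPS and 4.99, 3.64, 12 and 8.58 CPM in bulk MEF (4.54 ± 0.43). Espl1 (separase), the protease that releases sister chromatids, was at 123, 167, 158 and 170 CPM against 7.93, 5.76, 2.19 and 0.715 CPM (5.21 ± 0.66). Ccnf, cyclin F, a ubiquitin ligase subunit, rose by 4.90 ± 0.53 and the kinesin Kif2c by 4.11 ± 0.61. Promoters of the mitosis list are shown because of the elements they carry. The letters TTTGAA, the core of the cell cycle genes homology region (CHR) bound by the DREAM and MuvB complexes, were found on either strand in 22 of 30 called mitosis genes with a window (73.3%), against 14.7% of 34 called S phase genes and 14.1% of genes tested. The letters CCAAT, bound by the factor NF-Y, were found in 25 of those 30 (83.3%) and in 22 of the 34 called S phase genes (64.7%), against 43.3% of genes tested. The stretches up to the start lie at chr15:102296234-102296292 (plus strand), chr17:24251410-24251571 (minus strand) and chr4:118437344-118437411 (minus strand) in GRCm38.p6, and capitals mark both elements on either strand:
Espl1: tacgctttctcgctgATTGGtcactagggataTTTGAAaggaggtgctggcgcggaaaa
Ccnf: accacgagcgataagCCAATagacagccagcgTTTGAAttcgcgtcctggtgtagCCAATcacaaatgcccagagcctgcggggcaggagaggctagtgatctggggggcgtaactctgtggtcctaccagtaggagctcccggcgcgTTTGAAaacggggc
Cdc20: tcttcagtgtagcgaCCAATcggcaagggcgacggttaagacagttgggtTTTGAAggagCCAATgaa
The CHR core nearest the start begins 27 bases before it in Espl1, 14 in Ccnf and 18 in Cdc20, the last encoding an activator of the anaphase-promoting complex that rose by 3.83 ± 0.51.

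A further element was searched in both lists. The letters TTCCCGC, a form of the site bound by E2F factors, were found on either strand in 13 of 34 called S phase genes with a window (38.2%), against 1 of 30 called mitosis genes (3.33%) and 10.1% of genes tested. Examples lie at chr11:98907998-98908150 (plus strand) and chr10:128015185-128015214 (plus strand), with the element in capitals:
Cdc6: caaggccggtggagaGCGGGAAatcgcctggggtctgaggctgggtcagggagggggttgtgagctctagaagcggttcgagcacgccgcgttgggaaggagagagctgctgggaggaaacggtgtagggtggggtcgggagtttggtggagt
Prim1: tggaggcctgtcttgTTCCCGCcaattctc
Cdc6, which loads the replicative helicase, was at 195, 90.4, 120 and 125 CPM in iPS and 1.74, 8.99, 2.76 and 21 CPM in bulk MEF (3.94 ± 0.74). Prim1, the primase that starts each strand, was at 18.2 to 31.4 CPM against 1.01 to 2.88 CPM (3.66 ± 0.51). The plot of motif matches sets these shares beside those of all genes tested. The lists and motifs go by known factors but were chosen with earlier results of these data known, so the shares are descriptive only.

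**Figure D4:**
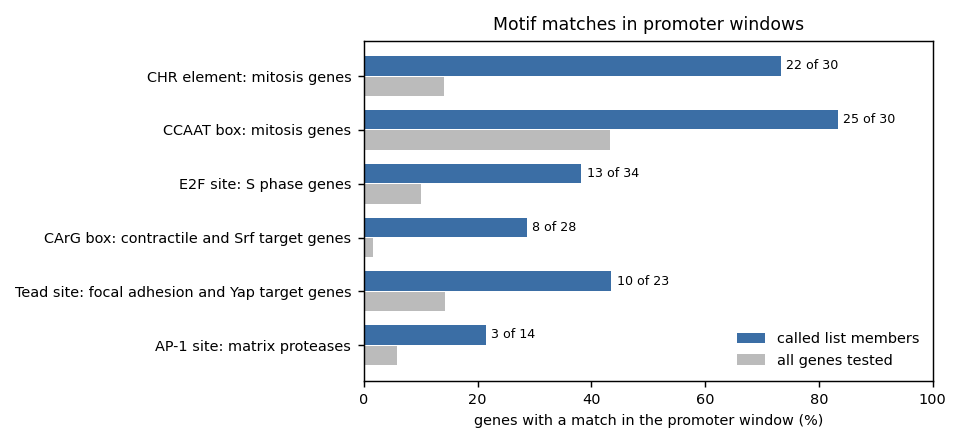
Share of genes with a motif match on either strand of the RefSeq promoter window (250 bases before to 50 after the start), for the called members of a list (blue, with the number matched of the number with a window) and for all genes tested that have a window (grey). The CHR element matched 22 of 30 called mitosis genes and the CArG box 8 of 28 called contractile genes, against 14.1% and 1.58% of genes tested.

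Regulators of G1 changed in composition rather than as a block, with 12 of 29 tested genes higher and 6 lower. Ccne1 (cyclin E1), which drives entry into S phase, was at 756, 460, 472 and 301 CPM in iPS and 18.9, 14.1, 50.5 and 22.4 CPM in bulk MEF (4.23 ± 0.48). Ccnd2 (cyclin D2), the mitogen-responsive cyclin of fibroblasts, was at 1175, 1679, 1669 and 1813 CPM in bulk MEF and 31, 47.6, 48.4 and 16.9 CPM in iPS (-5.46 ± 0.39, adjusted p = 8.76e-06). Ccnd1, its relative, was not called, at 273 to 364 CPM in iPS and 295 to 632 CPM in bulk MEF. The phosphatase Cdc25a rose by 2.55 ± 0.45 and Skp2, which marks the inhibitor p27 for destruction, by 2.51 ± 0.43. Cdkn1b, which encodes p27, was at 73, 41.4, 1.73 and 5.36 CPM in bulk MEF and 1.34 CPM or less in iPS (-5.57 ± 1.22, adjusted p = 0.00406), with a wide spread over the bulk MEF libraries. Cdkn2b, an inhibitor of cyclin D kinases, was at 97.2 to 225 CPM in bulk MEF and at 0.837, 2.59, 1.69 and 29.4 CPM in iPS (-4.11 ± 1.03). Cdkn2a, from the same locus and a known barrier to reprogramming, was too low to test, at 0.808 to 4.34 CPM in bulk MEF.

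DNA repair genes followed the replication genes, with 27 of 36 tested higher and 1 lower (median 2.97). Brca1, which directs homologous recombination, was at 35.6, 39.4, 34.9 and 27.9 CPM in iPS and at 0.217, 0.606, 1.61 and 0.238 CPM in bulk MEF (5.67 ± 0.69). Parp1, which senses strand breaks, was at 612, 573, 556 and 640 CPM against 35.3 to 52.3 CPM (3.81 ± 0.24, adjusted p = 5.26e-06), and the mismatch repair gene Msh6 rose by 4.22 ± 0.32. The exception was Ercc1, a nuclease subunit of excision repair, at 971, 441, 320 and 497 CPM in bulk MEF and 12.7, 45.1, 148 and 61.2 CPM in iPS (-3.06 ± 0.66). Cell death genes leaned the other way, with 2 of 31 tested higher and 13 lower (48.4%, near the background in total). The count of 2 was 4 without bulk MEF library 3 and 1 without iPS library 1 or 2. The initiator Casp8 fell from 24 to 42.4 CPM to 2.3 CPM or less (-5.14 ± 0.75), the receptor Tnfrsf1a by 4.62 ± 0.63 and the Casp8 inhibitor Cflar by 3.56 ± 0.53. Of the mitochondrial arm, Bcl2, a survival gene, fell by 6.54 ± 1.05, while the executioner Bax (0.18 ± 0.28) was not called. Birc5 (survivin), which also serves in mitosis, was one of the 2 that rose (3.57 ± 0.39).

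The fibroblast's matrix and contractile programme fell nearly as a whole. All 24 tested enzymes of collagen processing and crosslinking were lower in iPS (median -4.29), as were 23 of 26 matrix glycoproteins and proteoglycans and 21 of 24 matrix proteases and inhibitors, with 0, 0 and 1 higher. Lox, the crosslinking oxidase, fell from 779, 647, 626 and 743 CPM to 14.6, 5.37, 3.49 and 2.49 CPM (-6.79 ± 0.59). P4ha3, a collagen prolyl hydroxylase, fell from 291 to 471 CPM to 3.01 to 5.25 CPM (-6.70 ± 0.35), and Serpinh1, the collagen chaperone, from 2043 to 3604 CPM to 69.9 to 113 CPM. Mmp14, the membrane-bound collagenase, was at 1835, 1885, 1650 and 1644 CPM in bulk MEF and 21.9, 15.6, 7.62 and 22.8 CPM in iPS (-6.69 ± 0.39). The proteoglycan Dcn (decorin) fell by 6.98 ± 1.04 and the matricellular protein Postn by 8.43 ± 0.82.

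Of 35 actin contractile and serum response factor (Srf) target genes tested, 0 were higher and 32 lower (median -3.59). Myl9, a myosin light chain of stress fibres, was at 5298, 5338, 4521 and 5448 CPM in bulk MEF and 58.2, 19, 2.86 and 13.8 CPM in iPS (-7.79 ± 0.85, adjusted p = 8.08e-05). Tagln (SM22), an actin-bundling protein, was at 24804 to 39385 CPM in bulk MEF and at 648, 185, 72.1 and 327 CPM in iPS, highest in iPS library 1 as Myl9 was. The cytoskeletal Actb fell by 2.24 ± 0.17. Srf itself was at 126, 186, 309 and 331 CPM in iPS and 325, 277, 206 and 282 CPM in bulk MEF (-0.19 ± 0.33, adjusted p = 0.65), and its actin-sensing cofactor Mkl1 fell by 2.08 ± 0.41. The CArG box, the binding site of Srf, was found on either strand in the windows of 8 of the 28 called members that had one (28.6%), against 1.58% of genes tested and 1.63% of all windows. The list was drawn partly from known Srf targets. The members with a box and the largest fall lie at chr2:156775288-156775463 (plus strand), chr16:57549165-57549241 (plus strand) and chr1:43196762-43196872 (minus strand) in GRCm38.p6, with the box in capitals:
Myl9: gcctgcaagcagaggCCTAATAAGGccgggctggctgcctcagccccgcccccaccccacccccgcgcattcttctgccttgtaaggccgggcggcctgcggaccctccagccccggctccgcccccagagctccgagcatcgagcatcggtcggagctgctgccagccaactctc
Filip1l: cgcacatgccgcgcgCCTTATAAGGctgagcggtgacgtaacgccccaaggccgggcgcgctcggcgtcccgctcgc
Fhl2: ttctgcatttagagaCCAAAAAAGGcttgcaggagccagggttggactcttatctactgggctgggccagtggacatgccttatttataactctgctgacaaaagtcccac
Filip1l, a filamin partner protein, was at 99.8 to 123 CPM in bulk MEF and 0.713 to 2.68 CPM in iPS (-6.45 ± 0.50). Fhl2, a LIM domain cofactor, was at 69.8, 67.3, 81.8 and 66.2 CPM in bulk MEF and 1.17, 0.576, 1.22 and 1.6 CPM in iPS (-5.94 ± 0.44).

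Focal adhesion, caveola and Yap target genes followed, with 28 of 34 tested lower and 2 higher (1 higher without bulk MEF library 1 or iPS library 1). Ctgf, a secreted target of the Yap and Taz coactivators, was at 821, 659, 765 and 768 CPM in bulk MEF and 14.7, 12.9, 14.7 and 10.2 CPM in iPS (-5.84 ± 0.26, adjusted p = 1.28e-06), and Ankrd1, another target, fell by 6.71 ± 1.24. Of the coactivators themselves, Wwtr1 (Taz) fell from 104 to 138 CPM to 3.01 to 14.9 CPM (-3.70 ± 0.49). Yap1 was not called, at 34.6, 93.1, 77 and 83.2 CPM in iPS and 90.6, 114, 140 and 73.6 CPM in bulk MEF. Their DNA-binding partner Tead2 rose (1.12 ± 0.36, adjusted p = 0.0268, called in 5 of the 8 fits that each left out 1 library). Cav1, the caveola coat protein, fell from 269 to 350 CPM to 14.4, 1.73, 0.688 and 1.69 CPM, and Msn (moesin), which ties actin to the membrane, by 3.13 ± 0.17. The letters GGAATG, a Tead site, lay in 10 of 23 members called in either direction that had a window (43.5%), against 14.3% of genes tested. They lay in a similar share, 11 of 28 (39.3%), of the called contractile and Srf target genes.

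The basement membrane did not fall as the interstitial matrix did: 8 of 22 tested genes were higher and 10 lower. Of 9 laminin chains tested 4 were higher (Lama1, Lama3, Lama5 and Lamc1, the last with overlapping libraries and a call in 3 of the 8 fits that each left out 1 library) and 3 lower (Lama2, Lama4 and Lamb1). Lama1, the first laminin chain of the embryo, was at 22.8, 12.4, 29.2 and 17 CPM in iPS and 1.09, 1.21, 0.691 and 0 CPM in bulk MEF (4.73 ± 0.85). Lama5, whose laminins support pluripotent cells in culture, was at 132, 241, 135 and 216 CPM against 9.01, 19.8, 22 and 2.03 CPM (3.77 ± 0.65), and Col18a1, a basement membrane collagen, rose by 3.39 ± 0.58. Lama4, a laminin chain of vessels and mesenchyme, fell (-6.47 ± 0.68), as did the network collagens Col4a1 (-5.34 ± 0.38) and Col4a2 (-5.53 ± 0.68). A pair of secreted calcium-binding proteins of the basement membrane moved apart: Smoc1 rose by 4.59 ± 1.30 and Smoc2 fell by 9.31 ± 0.82. Among integrin chains, which bind these matrices, 3 of 19 tested were higher and 11 lower. The laminin receptors Itga3 and Itga6 were among those that rose (2.09 ± 0.45 and 1.25 ± 0.43, the latter called in 3 of the 8 fits that each left out 1 library). The fibronectin receptor chain Itga5 fell from 604 to 957 CPM to 24 to 69.6 CPM (-3.93 ± 0.37).

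Cells exchanged mesenchymal for epithelial contacts. Of 31 tested epithelial junction and splicing genes, 23 were higher in iPS and 3 lower (median 5.11), with 1 lower without bulk MEF library 2 or iPS library 3. Cdh1 (E-cadherin) was at 144, 78.4, 68.8 and 67.9 CPM in iPS and 0.543, 1.01, 0.461 and 0 CPM in bulk MEF (7.42 ± 0.76), and Cdh2 (N-cadherin) was at 3.18, 3.26, 6.93 and 7.21 CPM in iPS and 109, 142, 138 and 104 CPM in bulk MEF (-4.56 ± 0.41). Dsg2, a desmosomal cadherin, rose by 10.55 ± 0.83. Grhl2, a master regulator of epithelial genes, was at 18.1 to 50.9 CPM against 0.303 CPM or less, and Esrp1, which sets epithelial splicing, at 20 to 26.4 CPM against 0.238 CPM or less. Cdh3 (P-cadherin) and the desmosomal plaque protein Pkp2 fell (-1.33 ± 0.30 and -1.27 ± 0.43), with Pkp2 called in 4 of the 8 fits that each left out 1 library. Of the transcription factors that repress epithelial genes, Zeb1 fell by 1.49 ± 0.41 and Snai1 by 1.86 ± 0.60, Snai1 with overlapping libraries and a call in 5 of the 8 fits.

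Transcription factors of mesenchyme and of body position fell together. In the mesenchymal list 29 of 41 tested genes were lower and 2 higher (1 without bulk MEF library 1 or 2 or iPS library 3 or 4), and of the 39 Hox cluster genes 18 could be tested, of which 10 were lower and 0 higher. Hoxc10, a lumbar and hindlimb gene, was at 156, 193, 133 and 110 CPM in bulk MEF and 1.67, 0.767, 0.9 and 0.356 CPM in iPS (-7.37 ± 0.52). Hoxa11, a limb gene, fell from 22 to 78.5 CPM to 0.178 CPM or less (-9.01 ± 0.78). Summed over the cluster genes, the bulk MEF libraries held 446 to 867 CPM and the iPS libraries 15.9 to 95 CPM, the latter highest in iPS library 1. Shox2, a limb skeletal factor, fell by 7.17 ± 0.77 and Osr1, a factor of embryonic connective tissue, by 7.87 ± 0.84. Among Sox genes 4 of 9 tested rose and 3 fell: Sox15, a relative of Sox2 in pluripotent cells, rose by 8.60 ± 1.03 and Sox13 by 6.51 ± 0.67, while Sox4 (-4.32 ± 0.59) and Sox11 (-3.37 ± 0.64) fell. With the filter set to 5 CPM in 4 libraries, 6 Hox genes were called lower, and limma voom called 16.

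Regulators of RNA processing split. Of 31 splicing regulators tested, 16 were higher and 7 lower. Mbnl2, which promotes the splicing forms of differentiated cells and opposes those of embryonic stem cells, was at 179, 188, 222 and 161 CPM in bulk MEF and 6.36, 7.77, 3.71 and 4.54 CPM in iPS (-5.07 ± 0.36), and its relative Mbnl1 fell by 3.94 ± 0.57. Rbm47, an epithelial RNA-binding protein, rose by 2.64 ± 0.55 and the splicing factor Srsf7 by 2.19 ± 0.41. In the let-7 axis, Lin28a, which blocks maturation of that microRNA, was at 124, 145, 55.3 and 111 CPM in iPS and 0, 0, 0.461 and 0.358 CPM in bulk MEF. Trim71, a let-7 target and ubiquitin ligase of pluripotent cells, rose by 5.18 ± 0.96. Igf2bp1, another let-7 target, rose from 44.2 to 114 CPM to 518 to 685 CPM (3.04 ± 0.31), while the related Igf2bp2 fell by 0.97 ± 0.28 and, as given above, the let-7 target Hmga2 fell. Known targets of one microRNA family thus moved in both directions.

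Metabolic genes changed at a few steps. Tdh, threonine dehydrogenase, which feeds one-carbon metabolism in mouse embryonic stem cells, was at 331, 461, 305 and 443 CPM in iPS and 0.869, 0, 1.96 and 0.238 CPM in bulk MEF (8.97 ± 0.86, adjusted p = 3.72e-05). Gldc, which cleaves the glycine that Tdh yields, was at 122, 76.5, 64.2 and 73.7 CPM in iPS and had counts in 1 bulk MEF library, at 1.38 CPM (7.91 ± 1.14). Phgdh, the entry enzyme of serine synthesis, fell from 178 to 355 CPM to 84.2 to 98.7 CPM (-1.69 ± 0.27), and mitochondrial Shmt2, which converts serine to glycine, was not called. In the list of serine, glycine, threonine and folate genes 12 of 24 tested were higher and 2 lower (1 lower without bulk MEF library 4 or iPS library 1, 2 or 4). Glycolysis genes were called in 39.3% of 28 tested, 8 higher and 3 lower, and the change lay in transport and isoforms. Slc2a3 (Glut3), a high-affinity glucose transporter, was at 849, 763, 946 and 750 CPM in iPS and 9.34, 16.3, 6.91 and 11.7 CPM in bulk MEF (6.22 ± 0.34, adjusted p = 2.7e-06), and Slc2a1 (Glut1) rose by 2.12 ± 0.28. Ldhb rose by 2.08 ± 0.28 while Ldha was not called (0.24 ± 0.17), and Eno2 fell by 3.60 ± 0.72.

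Genes of the large machines of translation and respiration were called less often than the background. On simulated data the test called 43 of 100 genes changed 4-fold, so small shifts shared by many genes could go uncalled. Cytosolic ribosomal protein genes took 7.81% to 10.3% of the counts in iPS libraries and 3.98% to 5.81% in bulk MEF (two-sided exact permutation p = 0.0286), yet 24 of 74 tested genes were called, all higher (32.4%, median 0.66). That count was 13 without iPS library 3, 15 without iPS library 2, bulk MEF library 1 or bulk MEF library 3, 39 without bulk MEF library 2, and 46 in limma voom. Mitochondrial ribosomal proteins gave 21 of 76 higher and 1 lower (median 0.71). In the fit over all 24 libraries, 6 cytosolic and 1 mitochondrial ribosomal protein genes were called higher. Of 36 complex I subunits 1 was higher (2.78%), a count that was 3 without bulk MEF library 2 and 0 without bulk MEF library 1, 3 or 4 or iPS library 2, 3 or 4, with 2 lower without bulk MEF library 3, and of 36 proteasome subunits 6 were higher and 1 lower (19.4%), with 3 higher without iPS library 3. Of 12 cytochrome oxidase subunits 4 were higher and 1 lower, with 0 lower without bulk MEF library 1 or 4 or iPS library 2 or 3. Cox7a1, the heart and muscle isoform, was at 4.18, 2.78, 2.17 and 19.7 CPM in iPS with no bulk MEF count, at least 81.9-fold higher, and Cox6b2, the testis isoform, was at 102, 57.6, 64.9 and 86 CPM in iPS and 0.76, 0.303, 0.576 and 2.38 CPM in bulk MEF (6.27 ± 0.66).

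Lysosome and autophagy genes fell, 24 of 32 tested, with 4 higher (median -1.90). The protease Ctsb (cathepsin B) went from 2129, 1618, 1634 and 2066 CPM to 221, 146, 158 and 144 CPM (-3.48 ± 0.23, adjusted p = 6.18e-06), Gabarapl1, an autophagosome protein, fell by 5.28 ± 0.43 and the membrane protein Lamp1 by 1.92 ± 0.24. The 4 that rose included Ulk1, the kinase that starts autophagy (3.51 ± 0.46), and 3 related regulators of lysosome genes, Tfeb (2.56 ± 0.82), Tfe3 (0.99 ± 0.33, with overlapping libraries) and Mitf (2.10 ± 0.77). Tfeb kept its call in 6, and Tfe3 and Mitf in 3, of the 8 fits that each left out 1 library. The count of 4 became 2 without bulk MEF library 1 or 2 or iPS library 2 or 4, and 1 without bulk MEF library 4. Among 32 antioxidant genes tested, 40.6% were called. Gsta4, a glutathione transferase for lipid peroxides, was at 440, 567, 584 and 453 CPM in iPS and 6.3, 1.31, 5.07 and 17 CPM in bulk MEF (6.11 ± 0.69), while Gpx8, a peroxidase of the endoplasmic reticulum, fell by 6.91 ± 0.83. In cholesterol synthesis and uptake 2 of 27 tested genes were higher and 8 lower, a share below the background, among them the receptor Lrp1 (-4.21 ± 0.46).

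Several genes that display the cell to the immune system were lower in iPS. B2m, the light chain of class I molecules, was at 141, 178, 84.2 and 142 CPM in bulk MEF and 2.84, 2.3, 1.85 and 6.23 CPM in iPS (-5.36 ± 0.51, adjusted p = 3.49e-05). The heavy chain genes H2-K1 and H2-D1 fell by 2.49 ± 0.52 and 2.99 ± 0.53, values that are uncertain because reads of these near-identical genes can be split between them. Over the antigen presentation list 6 of 14 tested genes were lower and 0 higher (42.9%, near the background in total), and the peptide transporter Tap1 was not called. Of the receptors and sensors, Ifngr2, a chain of the interferon gamma receptor, fell from 69.2 to 102 CPM to 1.07 to 5.51 CPM (-4.99 ± 0.56), and Tmem173 (Sting), the sensor relay for cytosolic DNA, by 4.75 ± 0.70. A pair of antiviral membrane proteins went the other way: Ifitm1 was at 71.4, 118, 85.4 and 104 CPM in iPS and 0.109, 0, 0.691 and 0.358 CPM in bulk MEF (8.33 ± 0.75), and Ifitm3 rose by 1.39 ± 0.36. Of 17 chemokine, cytokine and complement genes tested 11 were lower and 0 higher. Csf1, the macrophage growth factor, was at 1732, 1802, 1556 and 1906 CPM in bulk MEF and at 117, 18.3, 5.24 and 6.06 CPM in iPS.

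Beside these immune genes, macrophage markers were present in the bulk MEF libraries. Of 22 such markers 10 could be tested, 7 of them lower in iPS and 1 higher. The complement gene C1qc was at 86.3, 171, 103 and 167 CPM in bulk MEF and at 0, 0.192, 0.106 and 0.267 CPM in iPS, and C1qa, C1qb and the lysozyme gene Lyz2 moved with it. The receptor Csf1r had a mean of 7.05 CPM in bulk MEF and 0.0504 CPM in iPS, and the pan-leukocyte gene Ptprc 1.09 and 0.0265 CPM. The list summed to 253 to 403 CPM in bulk MEF and 52.1 to 102 CPM in iPS, where Cd68 and Laptm5, which other cells also express, carried most of it. How much RNA of such cells contributes to the immune genes that fell was not tested. With any 1 iPS library left out, 11 of the list were called lower.

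Of 30 germline genes counted, 17 could be tested, and 14 of these were higher in iPS and 0 lower. Their median was 7.44, or 6.32 with the 3 genes that had no bulk MEF count at their lower bounds. Members nearly absent from bulk MEF, such as Kit and Ddx4, passed the count filter through the iPS libraries. The share higher among those tested therefore does not describe the whole list. Kit, the receptor of primordial germ cells, was at 47.5, 52.1, 56.8 and 28.7 CPM in iPS and 0.217, 0, 0.346 and 0 CPM in bulk MEF (8.26 ± 0.82). Nanos3, which protects those cells, was at 151, 12.9, 54.9 and 8.73 CPM in iPS (7.92 ± 1.31), and Syce1, a protein of the meiotic synaptonemal complex, at 12.1 to 122 CPM (9.34 ± 1.27), both highest in iPS library 1. Ddx4 (Vasa), a marker of later germ cells, was at 2.59 to 9.26 CPM with no bulk MEF count, at least 63-fold higher, and Dazl was too low to test. With the stricter filter 9 of the list were called.

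Imprinted genes, of which one parental copy is silenced, were lower more often than higher, 13 and 6 of 26 tested. Grb10, a growth inhibitor, was at 272, 226, 189 and 214 CPM in bulk MEF and 11.4, 9.21, 3.12 and 9.08 CPM in iPS (-4.79 ± 0.44), and H19, a long noncoding RNA, fell by 1.12 ± 0.24. Peg3, a maternally silenced zinc finger gene, was not called, at 44.5 to 75.8 CPM in iPS and 31.5 to 81 CPM in bulk MEF. In the fit over all 24 libraries 5 of the list were called lower.

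Markers of other tissues were examined in both groups, and most members of the muscle, blood, cartilage and neural lists were too low to test. Among those tested, 2 of 2 muscle, 2 of 3 blood, 3 of 4 cartilage and bone and 4 of 9 neural genes were higher in iPS, with 0, 0, 1 and 3 lower. The blood count was 1 without iPS library 3. Members nearly absent from bulk MEF, such as Mylpf, Gata1 and Olig2, passed the count filter through the iPS libraries. The shares higher among those tested therefore do not describe the whole lists. Mylpf, a fast skeletal myosin light chain, was at 134, 230, 189 and 281 CPM in iPS and 1.38 CPM or less in bulk MEF (8.67 ± 0.82), and the titin gene Ttn rose by 4.83 ± 0.86, while the muscle regulators Myod1, Myog and Myf5 had means of 0.367, 0.101 and 0.0132 CPM in iPS. Stmn2, a tubulin regulator of neurons, was at 1043, 1357, 1571 and 1261 CPM in iPS and 5.65, 2.32, 8.06 and 2.62 CPM in bulk MEF (8.13 ± 0.49), and Olig2, a factor of oligodendrocyte and motor neuron precursors, was at 79, 50.1, 61.6 and 70.4 CPM with no bulk MEF count, at least 765-fold higher. Foxd3, a neural crest factor that also acts in pluripotent cells, rose by 8.90 ± 0.89, while Ncam1, a neural adhesion molecule, and Nes (nestin) fell by 4.60 ± 0.31 and 1.95 ± 0.37. The neural genes Sox1, Neurog2 and Dcx, too low to test, had means of 0.471, 0.399 and 0.2 CPM in iPS. Alpl, alkaline phosphatase, a bone enzyme that also stains pluripotent colonies, was at 92.2 to 206 CPM against 1.27 CPM or less. Gata1, the erythroid factor, was at 162, 16.1, 10.9 and 13.5 CPM in iPS, highest in iPS library 1, with no globin count in any of the 8 libraries. Of the endothelial list 5 of 10 tested genes were higher, among them Robo4, a guidance receptor of vessels (7.18 ± 0.99), while Cdh5 had a mean of 0.57 CPM in iPS and Flt1, a Vegf receptor, fell (-4.20 ± 1.30, called in 7 of the 8 fits that each left out 1 library).

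**Figure D5:**
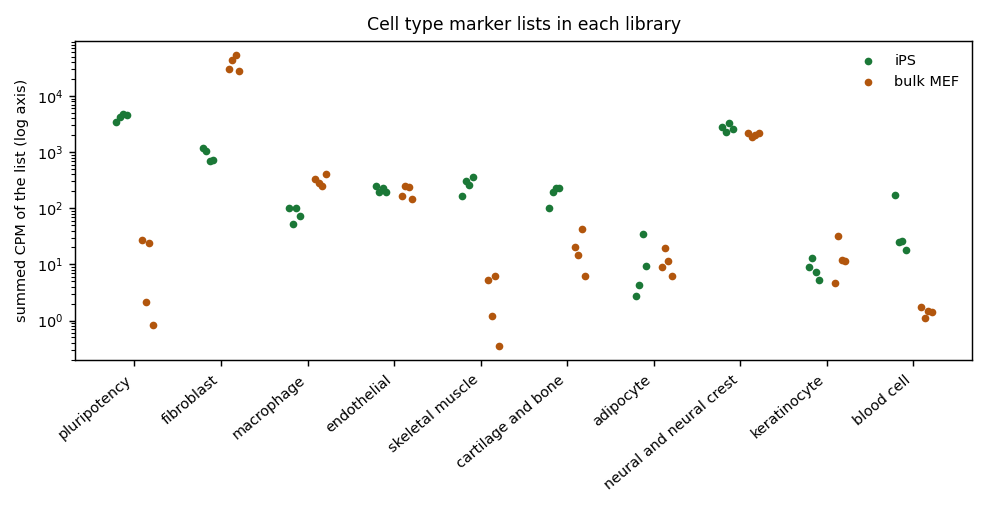
Summed CPM (log axis) of 10 cell type marker lists in each library; each point is a library. Pluripotency and fibroblast markers separate the groups without overlap, macrophage markers lie at 253 to 403 CPM in bulk MEF and 52.1 to 102 CPM in iPS, and the endothelial sums overlap.

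The genes with the smallest p-values over the whole table included several outside these lists. Higher in iPS, Rhpn2 was at 148, 97.9, 71 and 86.7 CPM against 0.202 to 0.326 CPM (8.59 ± 0.47, adjusted p = 2.7e-06). Alg13, an enzyme of N-glycan assembly, was at 280, 383, 215 and 211 CPM against 1.43 to 4.49 CPM, and Calcoco2 (Ndp52), an autophagy receptor, at 79 to 128 CPM against 0.217 CPM or less. Gpa33, a surface glycoprotein first known from gut epithelium, rose by 9.21 ± 0.64, and the RNAs E130012A19Rik and AU018091 by 8.45 ± 0.39 and 8.14 ± 0.51. Lower in iPS, Vat1, a vesicle membrane protein, was at 1434, 1499, 1468 and 1523 CPM in bulk MEF and 67.1, 95.1, 80.4 and 83.7 CPM in iPS (-4.18 ± 0.21, adjusted p = 2.04e-06). Crabp1, which binds retinoic acid, fell from 456 to 799 CPM to 5.4 to 9.88 CPM (-6.48 ± 0.33), and Sh3kbp1, an adaptor of receptor endocytosis, from 202 to 317 CPM to 2.69 to 4.54 CPM (-6.17 ± 0.34).

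Some genes were found in one state alone at these depths. Those with the highest mean in each direction were Olig2, given above, and Foxs1, a forkhead factor, at 74.5, 69.3, 63.5 and 59.2 CPM in bulk MEF with no iPS count, at least 1037-fold lower. With no count in any bulk MEF library, Pramel6, a pluripotency-associated gene of the Prame family, was at least 276-fold higher in iPS and the glycosyltransferase gene B4galnt4 at least 227-fold, taking 3 counts over the group as the floor. With no count in any iPS library, Igsf10, a matrix-associated immunoglobulin protein, was at least 308-fold lower and the matrix metalloprotease Mmp10 at least 224-fold. Cd2, a T cell adhesion gene, had no bulk MEF count either, but its iPS libraries were at 0, 1.82, 7.94 and 88.9 CPM, so its level rested on iPS library 4 and it was not tested.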

How the data were processed

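RNA sequencing libraries of 4 iPS and 4 bulk MEF samples were compared. The authors deposited 1 table of raw read counts per gene. Per the submitters' processing notes, the tools were CASAVA 1.8.2, TopHat2 2.0.4 and HTSeq, with genome build mm9. The strand setting of the counting is not given in the sources used here, so overlapping and antisense genes, and near-identical copies, are uncertain.

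From these counts, edgeR 4.0.16 (R 4.3.3) was run with filterByExpr, TMM scaling and the quasi-likelihood test on the 8 libraries. P-values were adjusted by the Benjamini-Hochberg method over all 11736 genes tested, with calls at 0.05. CPM uses the TMM-scaled library totals. Comparisons of single library measures used two-sided exact permutation tests. Of 23283 genes in the table, 4985 had no count in the 8 libraries. On simulated data of this design the test called 98 of 100 genes changed 16-fold and 43 of 100 changed 4-fold, with 6 false calls among 11736 genes. The changed genes were not of low level, went equally in both directions and were far fewer than those called here. These rates therefore need not hold for the real data.

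Genes were named by a rule: genes of known role in each list, up to 3 called members with the largest change in a list's main direction and up to 2 in the other (at least 20 CPM, groups not overlapping), the 12 smallest p-values in each direction, and the 10 most abundant genes with no count in one group. Actb, Cd68, Cdc6, Cdc20, Cox7a1, Ctnnb1, Dcx, Eomes, Fhl2, Filip1l, Gbx2, Jak2, Lama2, Lama3, Lamb1, Lamc1, Ldha, Mitf, Mkl1, Myc, Myf5, Myog, Neurog2, Prim1, Smad7, Sox1, T, Tfe3 and Zfp281 were named after their values were seen. The lists, members and motifs were chosen with earlier results of these data known. The 2 groups share replicate numbers, but deviations of same-numbered libraries correlated at 0.0632, 0.0207, 0.0254 and -0.0348, so the libraries were not treated as pairs. Alternatives were other scaling factors, no filter or a stricter one, DESeq2 1.42.0, limma 3.58.1 with voom, the replicate block, all 24 libraries in 1 fit, thinned counts and each library left out. Promoter letters are RefSeq's for GRCm38.p6, not the build of the counts, and only gene names join them.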

Additional observations from a re-analysis of the deposited data

Results flagged for a closer look

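Among 162 groups of 4 libraries (the genes whose library values are printed, and library totals), 19 held a library far from the other 3, the gap exceeding Dixon's critical share of the group's range. For normally distributed values chance gives about 1 in 20 groups. CPM values that include zeros need not follow that share, and a group where 1 library alone holds a count is always flagged. The number flagged therefore cannot be set against 1 in 20. Of the 19, 5 were in iPS library 1 and 7 in bulk MEF library 3.

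In iPS library 1, Cav1 was at 14.4 CPM (others 0.688 to 1.73) and Csf1 at 117 CPM (5.24 to 18.3), both genes that fell in iPS. The same library had the highest Cdh1 at 144 CPM (67.9 to 78.4), Gata1 at 162 CPM (10.9 to 16.1) and Syce1 at 122 CPM (12.1 to 21.2).

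In bulk MEF library 3, Jarid2 was at 35.9 CPM (2.71 to 5.48), Klf2 at 30.8 CPM (9.23 to 12.6), Klf4 at 172 CPM (132 to 135) and Dnmt3l at 2.42 CPM (0 to 0.404). Prdm14 at 0.115 CPM and Tcl1 at 0.23 CPM had no count in the other 3 libraries, and Myl9 was lowest there at 4521 CPM (5298 to 5448).

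Elsewhere, Nodal was at 85.8 CPM in iPS library 2 (70.6 to 71.4), Prdm14 at 77 CPM in iPS library 3 (41.7 to 46.9) and Cdkn2b at 29.4 CPM (0.837 to 2.59) and Cox7a1 at 19.7 CPM (2.17 to 4.18) in iPS library 4. Gata6 at 27.8 CPM (9.45 to 9.78) and Socs3 at 138 CPM (14.3 to 29.3) stood apart in bulk MEF library 2, and Syce1 at 0.217 CPM in bulk MEF library 1, with no count in the other 3.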

How the results depend on the processing

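The count of 5566 called genes (2828 higher, 2738 lower) stayed within 1.5 times under every alternative but 1. With all 24 libraries in 1 fit, 3170 genes were called, 1502 higher and 1668 lower. The cause was not tested. Leaving out 1 library gave 5008 to 5532 calls, 2374 to 2918 of them higher and 2482 to 2724 lower. With the replicate number as a block, 5133 genes were called (2626 higher, 2507 lower), and the numbers do not pair the libraries. The difference in genes detected, 1540, was 1360 to 1721 without any 1 library, at an exact permutation p = 0.0571, the smallest that 3 against 4 allows, an alternative chosen after seeing the data. Of 214 called genes named in the text, 201 kept the call in all 8 fits that left out 1 library. In the other 9 alternatives 39 lost the call at least once, 38 of them in the fit over all 24 libraries and 6 in another. No called gene changed sign. Depth limits the low genes: 3 counts over a group correspond to 0.0645 CPM in iPS and 0.0829 CPM in bulk MEF.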
